A study of Homo sapiens with 24 samples.

Results

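The nucleosome remodelling and deacetylase (NuRD) complex was examined through 10 of its subunit genes, *CHD4*, *MTA1*, *MTA2*, *MTA3*, *HDAC1*, *HDAC2*, *RBBP4*, *RBBP7*, *MBD2* and *MBD3*, which were taken by name from the 60605 genes of the count table. All 10 passed the low-count filter and were among the 22326 genes tested. NuRD joins a nucleosome-sliding ATPase to histone deacetylases in 1 assembly, and is known as a corepressor that transcription factors bring to enhancers and promoters. CHD4 is the ATPase, the MTA proteins are the scaffold that binds the deacetylases HDAC1 and HDAC2, RBBP4 and RBBP7 are WD-repeat histone chaperones shared with other chromatin complexes, and MBD2 and MBD3 are alternative subunits with a methyl-CpG-binding domain. TRPS1, the factor depleted in the study, is a GATA-type zinc finger repressor that is known to bind NuRD proteins, and in breast tissue it marks luminal and other epithelial cells.

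Nascent transcription was measured by PRO-seq, a run-on assay in which RNA polymerases engaged on DNA add a labelled nucleotide, so that the counts of a gene report polymerases on it and not its mRNA or protein. The cells were Clone 28, Clone 35 and Clone 39 of T47D, an estrogen receptor-positive luminal breast cancer cell line, all of which carry a dTAG degron on endogenous *TRPS1*. Each clone received 0.1% DMSO or 100 nM dTAG-13, a ligand that directs the tagged protein to degradation, for 90 min, in 4 replicates per treatment, which gave 24 libraries in 6 groups. The 4 replicates were harvested at different times of 1 day, each with its DMSO and dTAG-13 dishes together, and the time that each replicate number stands for was not stated. Each clone is a single line that came through 2 rounds of drug selection, so a difference between clones cannot be told apart from the history of each line, and p-values measure the spread between dishes of that line.

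Library totals ran from 3226718 to 9575803 reads in genes, with a median of 5042122. The luminal markers *ESR1*, *PGR*, *GATA3*, *FOXA1*, *KRT8*, *KRT18* and *KRT19* were counted in every library and summed to between 3627 and 5762 CPM (here counts scaled to library totals), of which *KRT19* was the 1 called with dTAG-13 (-0.13, adjusted p = 0.0346 by edgeR). It was not called without Clone 28, 35 or 39 (adjusted p = 1.00, 0.301 and 0.106). In the 3 clones together, with each pair of DMSO and dTAG-13 libraries as a block, its adjusted p was 4.62e-04. The 7 markers of basal, stromal, immune and endothelial cells summed to between 24.8 and 38.7 CPM, with *KRT5* at 0 to 2 counts and *KRT14* at 0 to 5 counts in a library. *TRPS1* itself lay between 5183 and 9296 CPM (from here on with TMM factors), which does not check its depletion, since dTAG-13 acts on the protein. In each of the 12 pairs of DMSO and dTAG-13 libraries its CPM was the larger under dTAG-13, and the log2 fold change was 0.19 (adjusted p = 0.733 with edgeR, and 6.65e-04 with the pair as a block).

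The levels of the subunit genes were compared per length of gene in the 12 DMSO libraries, as CPM per kb of the GENCODE gene span. *MTA2*, a scaffold subunit, had the highest density at 5.70 ± 0.467 CPM per kb (SD, n = 12), followed by *MBD3* at 5.02 ± 0.506. The histone chaperone genes *RBBP7* and *RBBP4* came next, at 3.21 ± 0.278 and 3.10 ± 0.131. *MTA1* was at 2.14 ± 0.172, and the ATPase gene *CHD4* was at 1.23 ± 0.0694. The remaining genes lay close together, with *HDAC1* at 1.10 ± 0.109, *MBD2* at 0.872 ± 0.110, *HDAC2* at 0.778 ± 0.0596 and *MTA3* at 0.734 ± 0.0801 CPM per kb. The median of 14905 tested protein-coding genes was 1.05 CPM per kb, so 7 of the 10 subunit genes were above it and *MBD2*, *HDAC2* and *MTA3* were below it. Neighbours in this order had overlapping library values except at 3 steps, from *MBD3* to *RBBP7*, from *RBBP4* to *MTA1* and from *MTA1* to *CHD4*. Within the paralogue families the ranges of the libraries were separate by these spans, in the order *MTA2*, *MTA1* and *MTA3*, with *MBD3* above *MBD2* and *HDAC1* above *HDAC2*. Those of *RBBP7* and *RBBP4* overlapped. The order depends on the division by length. By CPM alone *MTA3*, with a span of 262 kb, was the highest of the subunit genes at 192.5 ± 21.0. *MTA2*, with a span of 8.65 kb, was at 49.3 ± 4.04. The counts sum reads paused near the start with those in the gene body, and their part in this order was not tested. The RefSeq windows upstream of the starts of *HDAC2* (113971149 to 113971398) and *CHD4* (6606452 to 6606701) lie inside their GENCODE spans, which lowers their values per kb. The places of *HDAC2* below *HDAC1* and below the median may therefore not hold from the RefSeq start, which was not computed.

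**Figure D1:**
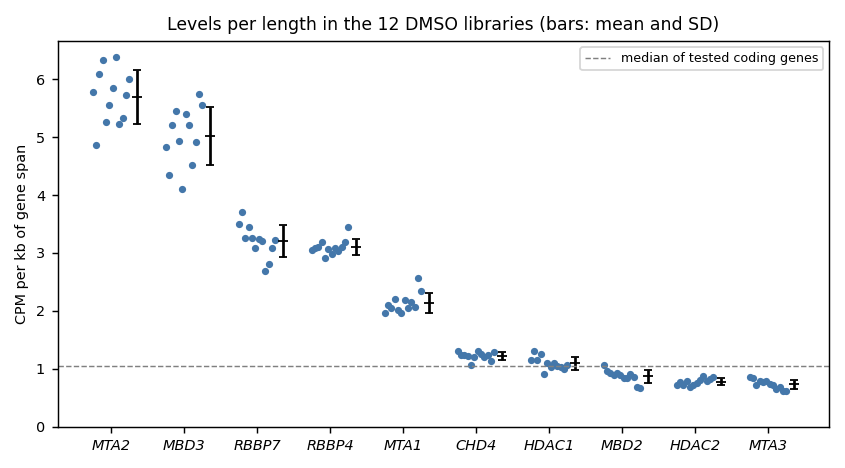
CPM per kb of gene span (y axis, linear) of each NuRD subunit gene (x axis, ordered by mean) in the 12 DMSO libraries, 1 point per library, with the mean and SD beside the points and the median of 14905 tested coding genes as a dashed line. *MTA2* and *MBD3* stand highest, with all libraries above 4, and *MTA3* lowest, with libraries between 0.618 and 0.858.

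Several spans overlap other genes, and whether reads were assigned by strand is not given in the sources used here, so these counts are uncertain. *CHD4* (hg38, chromosome 12, 6570082 to 6614524, minus strand) shares 37286 bp with the same-strand gene ENSG00000285238, whose counts came to 141% of those of *CHD4*. *MTA1* (chromosome 14, 105419820 to 105470729, plus strand) shares 30287 bp with *TEX22*, and *MBD3* (chromosome 19, 1573596 to 1592865, minus strand) shares 14527 bp with ENSG00000267059, both on the same strand. The counts of *TEX22* came to 188.5% of those of *MTA1*, and those of ENSG00000267059 to 129.6% of those of *MBD3*. *HDAC2* (chromosome 6, 113933028 to 114011308, minus strand) has the antisense gene *HDAC2-AS2* over 41608 bp of its span, with counts at 27.9% of those of *HDAC2*. *RBBP7* (chromosome X, 16839283 to 16870362, minus strand) overlaps *TXLNG* by 5237 bp, and *RBBP4* (chromosome 1, 32651142 to 32686211, plus strand) overlaps *SYNC* by 6306 bp, both on opposite strands. The counts of *TXLNG* came to 72.7% of those of *RBBP7*, and those of *SYNC* to 6.82% of those of *RBBP4*. *MTA2* (chromosome 11, 62593214 to 62601865, minus strand) and *HDAC1* (chromosome 1, 32292083 to 32333635, plus strand) overlap no annotated gene, and *MTA3* (chromosome 2, 42494569 to 42756947, plus strand) and *MBD2* (chromosome 18, 54151606 to 54224669, minus strand) overlap small RNA genes or pseudogenes with at most 0.634% of their counts. Processed copies of *HDAC1* and *RBBP4* elsewhere held 0.666% and 0.479% of their counts.

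The main starts of the subunit genes lie in GC-rich sequence. RefSeq promoter windows (GRCh38.p14) of 250 bases upstream of the start were found for all 10 genes. The main window of each, the furthest upstream where a gene had another, held between 18 and 41 CpG dinucleotides, against a median of 11 over 27300 promoters. The other windows of *MTA2*, *RBBP4* and *RBBP7* held 33, 28 and 48. That of *MTA3* (chr2:42567795-42568044) held 3, below the median. The main windows of 4 genes are shown, *MBD3* and *MTA2* as genes that were higher in replicates 3 and 4 and *MTA3* and *MBD2* as the genes that were lower. Each is written from 5′ to 3′ on the strand of the gene and ends at the base before the RefSeq start, with CpG dinucleotides in capitals.
MBD3, chr19:1592866-1593115, minus strand: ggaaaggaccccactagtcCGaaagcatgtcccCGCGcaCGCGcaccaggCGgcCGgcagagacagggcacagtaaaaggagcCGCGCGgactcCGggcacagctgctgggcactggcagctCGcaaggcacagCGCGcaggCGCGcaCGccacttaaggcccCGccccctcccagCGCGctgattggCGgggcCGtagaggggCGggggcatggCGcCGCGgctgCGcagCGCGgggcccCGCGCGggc
MTA2, chr11:62601866-62602115, minus strand: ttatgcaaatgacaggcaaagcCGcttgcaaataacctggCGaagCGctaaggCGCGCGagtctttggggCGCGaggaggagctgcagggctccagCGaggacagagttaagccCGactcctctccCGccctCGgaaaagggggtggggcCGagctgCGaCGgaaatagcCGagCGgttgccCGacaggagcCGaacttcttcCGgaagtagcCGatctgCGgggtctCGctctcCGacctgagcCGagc
MTA3, chr2:42493860-42494109, plus strand: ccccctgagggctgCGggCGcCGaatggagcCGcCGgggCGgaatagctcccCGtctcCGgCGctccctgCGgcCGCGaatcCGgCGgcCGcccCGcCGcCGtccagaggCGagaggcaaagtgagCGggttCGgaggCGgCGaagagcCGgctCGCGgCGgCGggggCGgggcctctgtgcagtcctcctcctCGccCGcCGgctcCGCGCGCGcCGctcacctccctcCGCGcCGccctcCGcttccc
MBD2, chr18:54224670-54224919, minus strand: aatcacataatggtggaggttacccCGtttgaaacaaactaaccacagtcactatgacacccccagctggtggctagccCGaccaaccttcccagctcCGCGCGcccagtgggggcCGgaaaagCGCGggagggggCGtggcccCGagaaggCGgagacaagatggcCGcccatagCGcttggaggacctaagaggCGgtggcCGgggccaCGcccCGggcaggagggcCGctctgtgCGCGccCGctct
The windows hold 32 CpG dinucleotides for *MBD3*, 25 for *MTA2*, 41 for *MTA3* and 21 for *MBD2*, so the count did not separate the genes that were higher from those that were lower. TRPS1 belongs to the GATA family, and the hexamer AGATAA was searched on both strands, together with its variant AGATAG, the variant TGATAA and the variant TGATAG, which all hold GATA. None of the subunit genes had a match in these 250 bases, while 22.9% of the 27300 promoters had one. This says only that these letters are not in the windows.

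The main comparison asked whether transcription of the corepressor's own genes differed after 90 min of dTAG-13. No subunit gene was called, in the 3 clones together or in any clone, at an adjusted p under 0.1 (edgeR quasi-likelihood test with Benjamini-Hochberg adjustment over all genes). In the 3 clones together 0.551% of all genes were called, and 0.0537% in Clone 28, 0% in Clone 35 and 0% in Clone 39. With each replicate's DMSO and dTAG-13 libraries paired as a block, 2.33% of all genes were called, and again none of the 10. No subunit gene reached an unadjusted p of 0.05 in the 3 clones together, where 1411 of all 22326 genes did, and 1 subunit gene did with the block, *MBD2*. DESeq2 called none of the 10 in any of these comparisons. The median log2 fold change of the 10 was -0.0046, and that of all genes was -0.0018.

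The intervals describe the precision of each change. Each is for 1 gene at a time, from the fit without the block, on counts scaled with TMM factors. *CHD4* stood at 54.5 ± 3.08 CPM in the 12 DMSO libraries, and its log2 fold change was -0.041 (SE 0.0418, 95% interval -0.126 to 0.0441, adjusted p = 0.999 by edgeR). The MTA scaffold genes had log2 fold changes of -0.038 for *MTA1*, 0.042 for *MTA2* and -0.012 for *MTA3*. The chaperone genes were nearest to 0, with *RBBP4* at 0.0028 (95% interval -0.0697 to 0.0753) and *RBBP7* at 0.0039 (95% interval -0.0694 to 0.0772). *HDAC2* was at 0.022 and *MBD3* at -0.025. Over the 10 genes the widest bounds were those of *HDAC1*, down to -0.171, and of *MBD2*, up to 0.176, so changes of a larger size lay outside the intervals of the 3 clones together for all 10 genes. In single clones the intervals were wider.

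*HDAC1* and *MBD2* had the largest values. *HDAC1* was lower with dTAG-13 in 10 of 12 pairs, with a log2 fold change of -0.078 (SE 0.0456, adjusted p = 0.905 by edgeR). In Clone 28 its DMSO libraries were at 48.0, 54.1, 48.2 and 52.3 CPM in replicates 1 to 4, and its dTAG-13 libraries at 45.6, 44.1, 45.8 and 42.7 CPM. These ranges did not overlap, and the log2 fold change there was -0.19 (SE 0.0739, unadjusted p = 0.0171 and adjusted p = 0.859 by edgeR). In Clone 39 it was -0.12 (SE 0.0784) and in Clone 35 0.061 (SE 0.0723), and the test of a difference in response between clones gave an adjusted p of 1.00 by edgeR, with 0% of all genes called. *MBD2* was higher in 9 of 12 pairs, with a log2 fold change of 0.080 (SE 0.0473) and 0.084 (SE 0.0355, adjusted p = 0.368 by edgeR) with the block.

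*CHD4* was the only other gene with separate ranges within a clone. Its Clone 28 libraries were at 57.9, 55.3, 54.9 and 54.6 CPM with DMSO and 52.8, 50.5, 53.2 and 53.1 CPM with dTAG-13, with a log2 fold change of -0.087 (SE 0.0738, adjusted p = 1.00 by edgeR). In Clone 28 these were 2 of 10 subunit genes without overlap, against 2.97% of all tested genes, in Clone 35 0 of 10 against 2.37%, and in Clone 39 0 of 10 against 2.14%. The Clone 28 DMSO libraries that set the higher range for *HDAC1* are also those that the clones were compared with below.

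**Figure D2:**
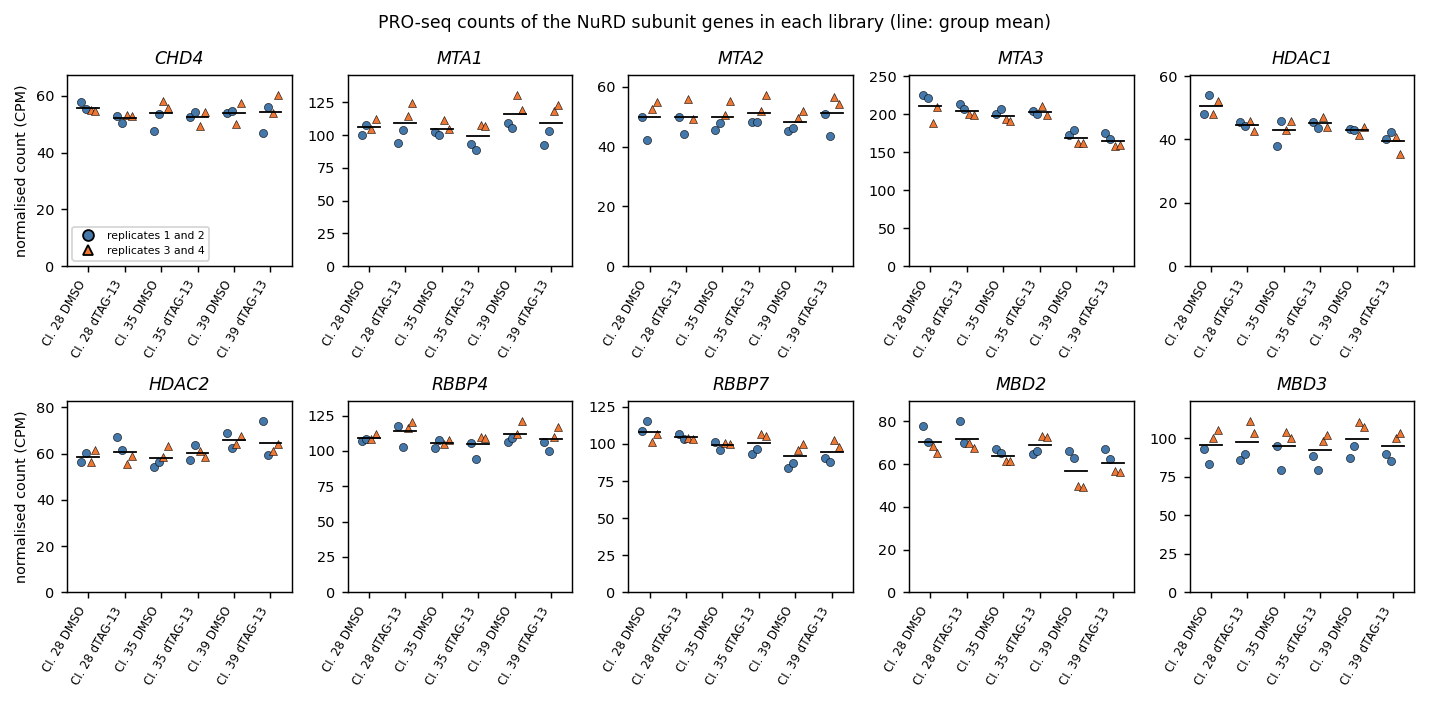
Normalised counts in CPM (y axes, linear and from 0) of each subunit gene in the 6 groups (x axes), 1 point per library in replicate order, circles for replicates 1 and 2, triangles for replicates 3 and 4, and a line at each group mean. DMSO and dTAG-13 libraries of a clone lie at like heights, *MTA3* is lower in Clone 39, and the triangles of *MBD3* lie above the circles in all 6 groups.

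**Figure D3:**
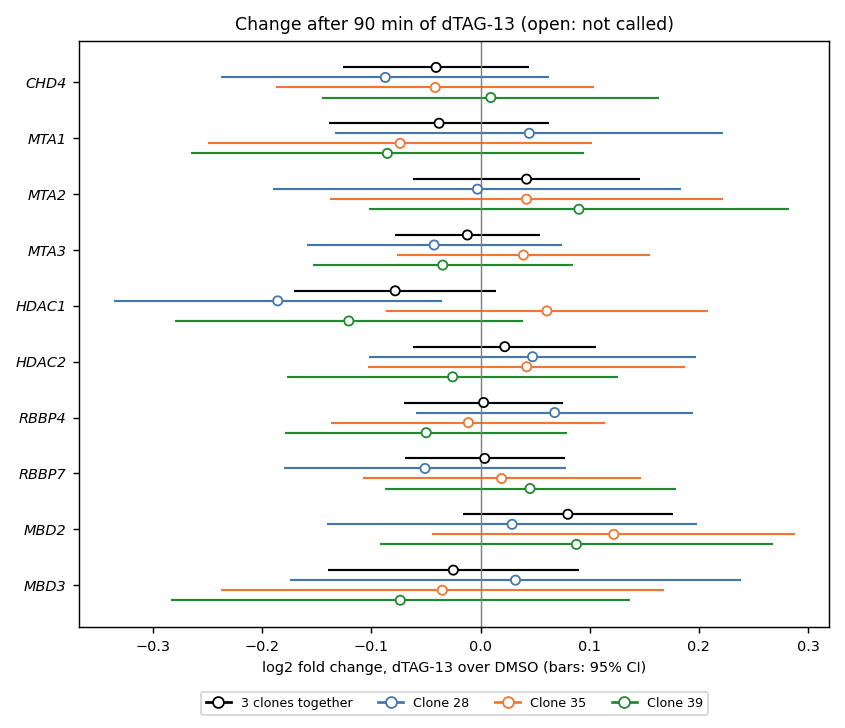
Log2 fold change of dTAG-13 over DMSO (x axis) for each subunit gene (rows) in the 3 clones together and in each clone, with bars for the 95% interval and open circles for values that were not called. All points are open, and the only interval that does not span 0 is that of *HDAC1* in Clone 28, from -0.336 to -0.0353.

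The clones themselves differed in the transcription of part of the complex. In the DMSO libraries 4 of 10 subunit genes, *MTA3*, *RBBP7*, *MBD2* and *HDAC1*, were lower in Clone 39 than in Clone 28 and none was higher, where 26.7% of all genes were called and 14.3% were called lower. *MTA3* was also the 1 subunit gene called between Clone 39 and Clone 35, where 22.6% of all genes were called and 12.9% were lower. *HDAC1* was the 1 called between Clone 35 and Clone 28, where 5.25% of all genes were called and 3.01% were lower.

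*MTA3*, the scaffold gene with the longest span, separated Clone 39 from the other clones in both treatments. Its DMSO libraries were at 225, 221, 188 and 209 CPM in Clone 28, at 201, 206, 193 and 191 CPM in Clone 35, and at 172, 179, 162 and 162 CPM in Clone 39. All 4 values of Clone 39 lay below all 8 of the others. The log2 difference was -0.32 (SE 0.0579, adjusted p = 7.16e-05 by edgeR) from Clone 28 and -0.23 (SE 0.0577, adjusted p = 0.00374) from Clone 35. In the dTAG-13 libraries it was at 175, 167, 157 and 159.5 CPM in Clone 39 against 199 to 213 CPM in Clone 28 and 199 to 210 CPM in Clone 35, again without overlap. There the log2 difference was -0.31 (adjusted p = 9.79e-05) from Clone 28 and -0.30 (adjusted p = 1.56e-04) from Clone 35. The 72 tested genes within 5 Mb of *MTA3* had a median log2 difference of 0.087 between Clone 39 and Clone 28, with 17 called higher and 5 lower. Of all 22326 genes, 2771 were called higher and 3188 lower there, and the neighbours were not tested against them.

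*RBBP7*, on the X chromosome, was at 109, 115, 101 and 107 CPM in the Clone 28 DMSO libraries and at 83.8, 87.3, 95.9 and 100.1 CPM in those of Clone 39. The ranges did not overlap, and the log2 difference was -0.24 (SE 0.0645, adjusted p = 0.00688 by edgeR). In the dTAG-13 libraries it was -0.14 (adjusted p = 0.129), which was not called, and there the ranges did not overlap either. Clone 35 lay between them at 99.4 ± 2.41 CPM (SD, n = 4) and was called different from neither. The 56 tested genes within 5 Mb had a median difference of -0.026 between Clone 39 and Clone 28.

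*MBD2* was at 77.8, 70.2, 68.4 and 65.01 CPM in the Clone 28 DMSO libraries and at 66.1, 63.1, 49.6 and 49.1 CPM in those of Clone 39, where replicates 3 and 4 were the low ones and replicate 1 overlapped with Clone 28. The log2 difference was -0.30 (SE 0.0862, adjusted p = 0.0102 by edgeR). In the dTAG-13 libraries it was -0.24 (adjusted p = 0.0399), and there the ranges did not overlap. The 55 tested genes within 5 Mb had a median difference of -0.079.

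*HDAC1* was at 43.3, 43.0, 41.4 and 43.95 CPM in the Clone 39 DMSO libraries and at 37.9, 45.8, 42.9 and 45.9 CPM in those of Clone 35, all below the 48.0 to 54.1 CPM of Clone 28. The log2 difference from Clone 28 was -0.24 in Clone 39 (SE 0.0755, adjusted p = 0.0209 by edgeR) and -0.23 in Clone 35 (SE 0.0735, adjusted p = 0.0876). In the dTAG-13 libraries the Clone 35 value turned to 0.021 (adjusted p = 0.954), the Clone 39 value was -0.17 (adjusted p = 0.113), and *HDAC1* was called lower in Clone 39 than in Clone 35 (-0.19, adjusted p = 0.0777). The call in Clone 35 was lost in 4 of the fits that left out 1 library, with a range of -0.27 to -0.18 and adjusted p of up to 0.283 in the fit without replicate 1 of Clone 35. *RBBP4*, which lies on the same arm of chromosome 1, differed by 0.041 between Clone 39 and Clone 28 (adjusted p = 0.725), and the 144 tested genes within 5 Mb of *HDAC1* by a median of 0.055.

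*HDAC2* differed in the other direction, with a log2 value of 0.17 for Clone 39 over Clone 28 (adjusted p = 0.113 by edgeR) and 0.17 over Clone 35 (adjusted p = 0.100, above the threshold before rounding). With the replicate number as a block term, 6 of 10 subunit genes were called between Clone 39 and Clone 28 where 35.2% of all genes were, and 4 of 10 between Clone 39 and Clone 35 where 30.5% were. The added genes were *HDAC2*, higher in Clone 39 (adjusted p = 0.0587 against Clone 28 and 0.0490 against Clone 35), *MTA1*, also higher (adjusted p = 0.0713 and 0.0323), and *MBD2*, lower than in Clone 35 (adjusted p = 0.0609). The block left 1 of 10 called between Clone 35 and Clone 28, *HDAC1*, where 11.9% of all genes were. In the dTAG-13 libraries 2 of 10 were called between Clone 39 and Clone 28 where 26.4% of all genes were, *MTA3* and *MBD2*, 2 of 10 between Clone 39 and Clone 35 where 21.5% were, *MTA3* and *HDAC1*, and 0 of 10 between Clone 35 and Clone 28 where 5.57% were. *CHD4*, *MTA2*, *RBBP4* and *MBD3* were called in none of the 3 comparisons of clones, in either treatment or with the block. These shares of subunit genes were not tested against the shares of all genes printed beside them. Among the cell type markers, 4 of 7 luminal genes were called by edgeR between Clone 39 and Clone 28 in the DMSO libraries, against 26.7% of all genes. *KRT18* (-0.57, adjusted p = 3.38e-06), *KRT8* (-0.45, adjusted p = 4.76e-05) and *GATA3* (-0.26, adjusted p = 0.00112) were lower, and *FOXA1* was higher (0.23, adjusted p = 0.0589). Of the other markers the basal factor gene *TP63* was lower in Clone 39 (-0.78, adjusted p = 2.42e-04). The leukocyte gene *PTPRC*, at 7 to 25 counts in a library, was higher there (0.69, adjusted p = 0.0806). Their part in the values of the subunit genes was not tested.

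**Figure D4:**
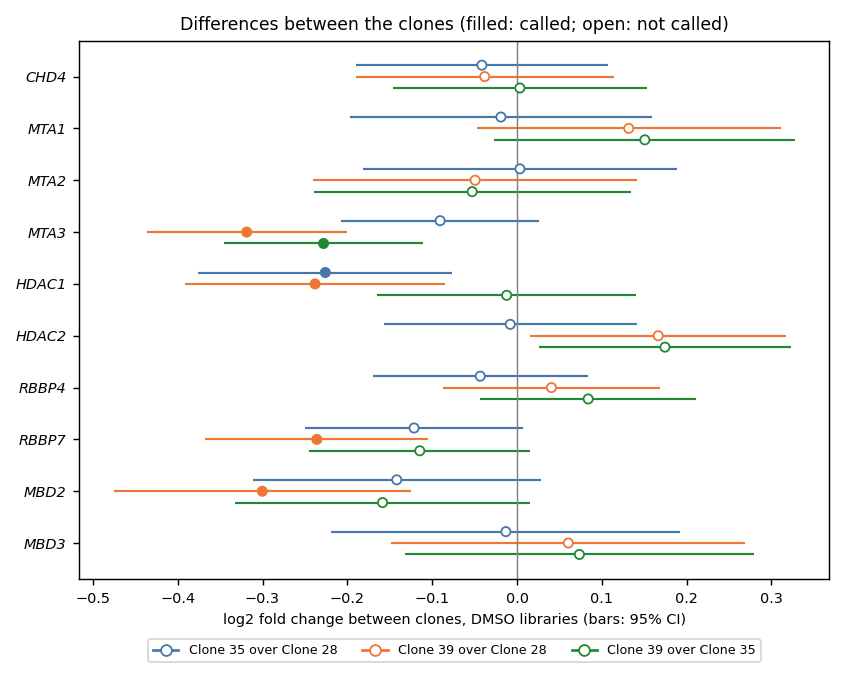
Log2 fold change between clones in the DMSO libraries (x axis) for each subunit gene (rows), in 3 colours for the 3 comparisons, with bars for the 95% interval, filled circles for called and open circles for uncalled values. The filled points are all left of 0: *MTA3* against both other clones, *HDAC1* in both clones against Clone 28, and *RBBP7* and *MBD2* in Clone 39 against Clone 28.

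The replicate numbers were compared because they mark different harvests. The split of 3 and 4 against 1 and 2 was chosen with earlier results of these data known. Its p-values are therefore not those of a split fixed in advance. Between replicates 3 and 4 and replicates 1 and 2, over all clones and treatments, 5 of 10 were higher (*MBD3*, *MTA1*, *MTA2*, *RBBP4*, *RBBP7*), where 20.7% of all genes were called higher, and 2 were lower (*MTA3*, *MBD2*), where 20.1% were called lower. Together 7 of 10 were called, against 40.8% of all genes, and 7 of 10 and 40.8% were not tested against each other. In the test of any difference among the 4 numbers 6 of 10 were called, all but *RBBP7* of these, against 37.2% of all genes. The collection time of each number was not stated, so no order in time can be read from it. Whether equal numbers of different clones were harvested together was not stated either, and both this comparison and the block between clones join them. The tests of replicate numbers took the 24 libraries as separate, although the DMSO and dTAG-13 dishes of a pair were harvested together. Their p-values measure the spread between dishes and not that between harvests.

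*MBD3* differed most. In replicates 1 and 2 its 12 libraries ran from 79.2 to 95.1 CPM with a median of 87.8, and in replicates 3 and 4 from 98.3 to 111 CPM with a median of 103. The ranges did not overlap, and within each of the 6 groups both libraries of replicates 3 and 4 were above both of replicates 1 and 2. The log2 difference was 0.25 (SE 0.0310, adjusted p = 2.83e-09 by edgeR), and it was 0.24 in the DMSO libraries alone and 0.25 in the dTAG-13 libraries alone.

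The scaffold genes *MTA1* and *MTA2* moved the same way and *MTA3* the other way. *MTA1* ran from 88.3 to 109 CPM in replicates 1 and 2 and from 104 to 131 CPM in replicates 3 and 4, which overlap in part, with a log2 difference of 0.20 (SE 0.0319, adjusted p = 1.20e-06 by edgeR). *MTA2* ran from 42.1 to 51.1 and from 49.2 to 57.3 CPM, with a log2 difference of 0.19 (SE 0.0399, adjusted p = 1.61e-04). In 5 of the 6 groups both libraries of replicates 3 and 4 were above both of replicates 1 and 2, for each of these 2 genes. *MTA3* ran from 167 to 225 and from 157 to 210 CPM, ranges that overlap, and within 5 of the 6 groups replicates 3 and 4 were both lower. Its log2 difference was -0.088 (SE 0.0261, adjusted p = 0.00652), and it was not called in the dTAG-13 libraries alone (-0.054, adjusted p = 0.308), without Clone 28 (-0.073, adjusted p = 0.105) or with scaling by library totals (-0.050, adjusted p = 0.131).

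*MBD2* was lower in replicates 3 and 4, with a log2 difference of -0.12 (SE 0.0379, adjusted p = 0.0114 by edgeR), with both libraries below both others in 4 of 6 groups. Without Clone 39 its value was -0.049 (adjusted p = 0.421), and in the dTAG-13 libraries alone -0.037 (adjusted p = 0.672). The chaperone genes had smaller differences, 0.089 for *RBBP4* (SE 0.0296, adjusted p = 0.0153) and 0.069 for *RBBP7* (SE 0.0318, adjusted p = 0.0889). Without Clone 39 they were 0.073 (adjusted p = 0.136) and 0.020 (adjusted p = 0.739), and *RBBP7* was no longer called in 14 of the 24 fits that left out 1 library. *CHD4*, *HDAC1* and *HDAC2* were not called, at 0.043, -0.0052 and -0.017.

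Sequence composition and length moved with this comparison over all genes. The log2 difference between replicate numbers correlated with the GC content of the gene span over 22268 genes (Spearman's rho 0.447) and with its length (rho -0.314), which is a description across genes that share the same libraries. Of the luminal markers 4 of 7 were lower in replicates 3 and 4, against 20.1% of all genes, led by *PGR* (-0.31, adjusted p = 2.14e-06 by edgeR). In 5 bins of genes from lowest to highest GC content the median log2 difference was -0.12, -0.055, -0.00028, 0.064 and 0.11. Over the 10 subunit genes rho was 0.746 with GC content and -0.733 with length. *MTA1* and *MBD3*, at 59.4% and 58.1% GC, were in the highest bin, *MTA2* and *CHD4*, at 52.4% and 49.0%, in the next, and *MBD2* and *HDAC2*, at 39.2% and 38.6%, in the lowest. *MTA3*, at 262 kb, was in the bin of the longest genes, whose median was -0.11. *MBD3* at 0.25, *MTA1* at 0.20 and *MTA2* at 0.19 lay above the median of their bin, *MBD2* at -0.12 lay on that of its bin, and *CHD4* at 0.043 lay below it. Other members lay off the order of the bins, with *HDAC2* at -0.017 in the lowest bin, *RBBP7* at 0.069 in the second, whose median was below 0, and *RBBP4* at 0.089, *HDAC1* at -0.0052 and *MTA3* at -0.088 all in the middle bin. The part of GC content and length in these values was not tested. For dTAG-13 against DMSO the correlations over all genes had the opposite sign, -0.274 with GC content and 0.145 with length, and between Clone 39 and Clone 28 they were 0.0367 and 0.0594.

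**Figure D5:**
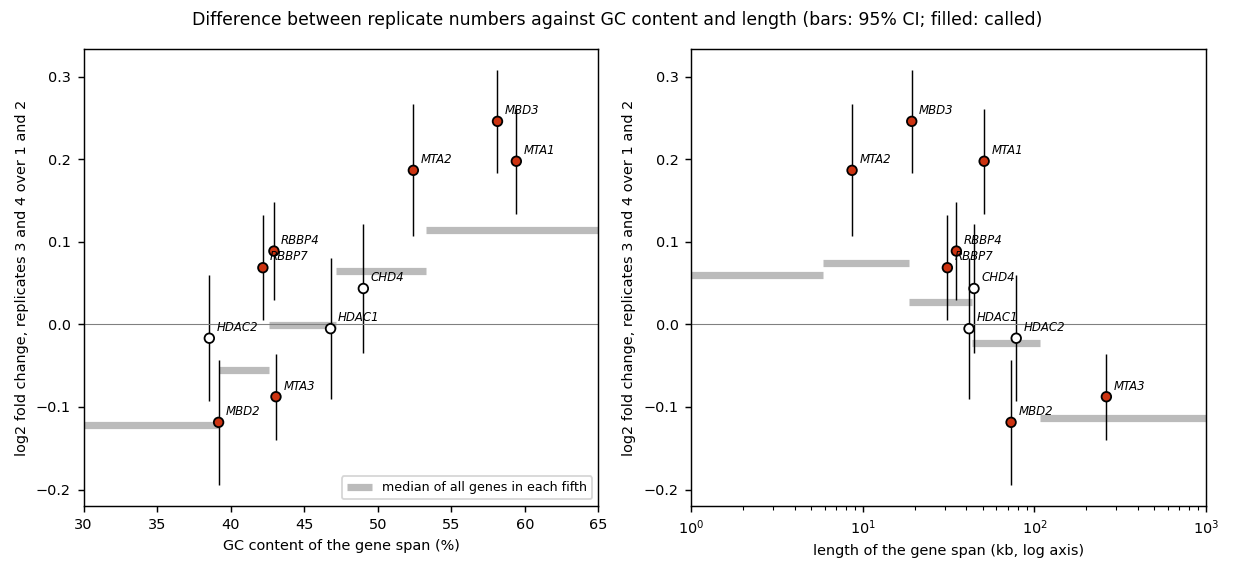
Log2 fold change of replicates 3 and 4 over replicates 1 and 2 (y axes) against the GC content in % (left x axis, linear) and the length in kb (right x axis, log) of each subunit gene, with bars for the 95% interval, filled circles for called genes and grey lines for the median of all genes in each of 5 bins, cut at the edges of the plot. *MBD3*, *MTA1* and *MTA2* lie at the upper right of the GC panel, and *MTA3* at the lower right of the length panel.

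The response to dTAG-13 itself did not differ detectably between the replicate numbers for the subunit genes. None of the 10 was called in the test of that difference, by edgeR or DESeq2, where 4.7% of all genes were called by edgeR. An unadjusted p under 0.05 by edgeR was reached by 2 of the 10 and by 3450 of all 22326 genes. The 2 subunit genes were *MTA1*, with a log2 difference in response of 0.15 (SE 0.0589, adjusted p = 0.169), and *MBD2*, with 0.16 (SE 0.0711, adjusted p = 0.229). In *MTA1* the 6 pairs of replicates 1 and 2 were all lower with dTAG-13, with log2 differences between -0.0388 and -0.239, whereas 4 of the 6 pairs of replicates 3 and 4 were higher.

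The other genes of the pathway were taken from lists of subunits and partners. None of the 8 further NuRD subunits and associated factors (*GATAD2A*, *GATAD2B*, *CDK2AP1*, *CHD3*, *CHD5*, *PWWP2A*, *PWWP2B* and *ZMYND8*) was called with dTAG-13, and the one with the smallest p was *CHD5*, a remodeller paralogue of *CHD4* (-0.15, adjusted p = 0.868 by edgeR). Between clones, by contrast, the remodeller paralogue *CHD3* was lower in Clone 39, with a log2 difference of -1.30 from Clone 28 (adjusted p = 2.44e-12) and of -1.23 from Clone 35 (adjusted p = 8.00e-12). These differences were larger than that of any of the 10 subunit genes, and *CHD4* differed by -0.038 and 0.0034 in the same comparisons. *ZMYND8*, a chromatin reader that binds NuRD, was lower in Clone 39 as well (-0.48, adjusted p = 7.13e-08 against Clone 28, and -0.62, adjusted p = 4.35e-10 against Clone 35), and *CHD5* was higher in Clone 39 (0.64, adjusted p = 9.99e-04) and Clone 35 (0.48, adjusted p = 0.0485) than in Clone 28. Of these 8 genes 2 were higher in replicates 3 and 4, against 20.7% of all genes, *CDK2AP1* (0.22, adjusted p = 5.97e-05) and *GATAD2A* (0.12, adjusted p = 0.00304), and none was lower.

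Factors that bring NuRD to DNA were not called with dTAG-13 either, at 0 of 7 tested of 9 listed, with the smallest p for *BCL6* (-0.054, adjusted p = 0.963 by edgeR). Between Clone 39 and Clone 28, *ZFPM2*, which binds GATA factors and NuRD, was higher by 0.91 (adjusted p = 1.77e-11), and the zinc finger genes *BCL11A* (-1.77, adjusted p = 3.43e-06) and *BCL11B* (-0.72, adjusted p = 0.0896) were lower. Between Clone 39 and Clone 35 *ZFPM2* was higher by 1.13 (adjusted p = 1.29e-13) and *BCL11A* lower (-1.27, adjusted p = 6.09e-04), and *ZFPM1* was higher in Clone 35 than in Clone 28 by 0.22 (adjusted p = 0.0369). In replicates 3 and 4, *ZFPM1* was higher (0.065, adjusted p = 0.0914) and *ZFPM2* (-0.096, adjusted p = 0.0256) and *BCL6* (-0.069, adjusted p = 0.0982) were lower.

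HDAC1, HDAC2, RBBP4 and RBBP7 also serve the CoREST, SIN3, Polycomb, chromatin assembly, NURF and MuvB complexes. With dTAG-13, where 0.551% of all genes were called, 1 of 9 CoREST genes was lower, *GSE1* (-0.17, SE 0.0335, adjusted p = 0.0119 by edgeR). With the pair as a block its adjusted p was 4.26e-08. In the fits without the block it was not called without Clone 28 (-0.14, adjusted p = 0.932). It was called without Clone 35 (-0.18, adjusted p = 0.0806) and without Clone 39 (-0.18, adjusted p = 0.0680). None of the 13 SIN3 genes was called (smallest p for *SAP30*, -0.12, adjusted p = 0.929), and neither was any of the 12 other RBBP4 and RBBP7 partners (smallest p for *LIN52*, 0.041, adjusted p = 0.963). DESeq2 called 1, 0 and 0 of them. An unadjusted p under 0.05 was reached in edgeR by 2, 0 and 0 of them, and by 1411 of all 22326 genes. None of the further NuRD subunits or of the factors that bring NuRD to DNA reached it, and DESeq2 also called none of those. The medians of the 3 lists were -0.030, -0.0015 and 0.013, against -0.0018 over all genes. Between Clone 39 and Clone 28, 6 of 13 SIN3 genes were called, against 26.7% of all genes, with *SIN3A* (-0.31, adjusted p = 9.05e-04), *SUDS3* (-0.26, adjusted p = 0.00553) and *SAP30L* (-0.37, adjusted p = 0.00553) among 5 that were lower and *SIN3B* (0.28, adjusted p = 0.0195) higher. In the CoREST list *GSE1* (0.22, adjusted p = 0.00686) and *ZNF217* (0.17, adjusted p = 0.00799) were higher and *RCOR2* (-0.61, adjusted p = 0.0467) lower there, and among the RBBP4 and RBBP7 partners *SMARCA1* (0.63, adjusted p = 8.01e-05), the NURF ATPase, was higher and *LIN9* (-0.26, adjusted p = 0.0359) lower. Between Clone 39 and Clone 35, *ZNF217* (0.26, adjusted p = 8.11e-05) and *SIN3B* (0.21, adjusted p = 0.0899) were higher, and *RCOR2* (-0.58, adjusted p = 0.0601), *SAP30L* (-0.34, adjusted p = 0.00994), *SAP30* (-0.42, adjusted p = 0.0270) and *LIN37* (-0.36, adjusted p = 0.0755) were lower. Between Clone 35 and Clone 28, *SMARCA1* was higher (0.67, adjusted p = 2.28e-04) and *SIN3A* lower (-0.25, adjusted p = 0.0276), and no CoREST gene was called. In replicates 3 and 4, 5 of the 12 RBBP4 and RBBP7 partners were higher, against 20.7% of all genes, led by *EZH2* (0.32, adjusted p = 2.80e-12), *CHAF1A* (0.37, adjusted p = 7.98e-10) and *CHAF1B* (0.36, adjusted p = 3.41e-09), and 2 were lower, against 20.1% of all genes, *BPTF* (-0.14, adjusted p = 6.44e-06) and *SMARCA1* (-0.23, adjusted p = 4.40e-05). In the SIN3 list, against the same shares, 5 of 13 were higher, led by *ING1* (0.44, adjusted p = 1.90e-06), *SAP30* (0.21, adjusted p = 0.00568) and *SIN3B* (0.14, adjusted p = 0.00610), and 2 were lower, *ARID4B* (-0.089, adjusted p = 0.00127) and *ARID4A* (-0.11, adjusted p = 0.00578). In the CoREST list *HMG20B* was higher (0.15, adjusted p = 0.0353) and 4 of 9 were lower, again against 20.1% of all genes, led by *RCOR3* (-0.13, adjusted p = 1.47e-04), *PHF21A* (-0.13, adjusted p = 1.74e-04) and *GSE1* (-0.058, adjusted p = 0.0319). EZH2 is the Polycomb methyltransferase, and CHAF1A and CHAF1B are subunits of the chromatin assembly factor that works at replication forks.

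The pattern of each subunit gene over the 24 libraries was set beside those of other genes on other chromosomes with a mean of at least 100 counts, by Pearson's r of log2 CPM, as a description. *CHD4* was most like *ATP5IF1* (r = 0.654), *HDAC1* like *TOB1* (r = 0.757), *HDAC2* like *TRADD* (r = 0.710) and *RBBP7* like *MCM10* (r = 0.851), followed by *DHTKD1* (r = 0.825) and the replicative helicase gene *MCM2* (r = 0.823). The highest r of the other 6 subunit genes lay between 0.805 for *MTA2* and 0.966 for *MTA3*. Among the subunit genes themselves the highest r was between *MTA3* and *MBD2* (0.797), followed by *MTA1* and *MBD3* (0.755) and *MTA2* and *MBD3* (0.656). The lowest was between *MTA1* and *MBD2* (-0.589). These libraries share clones, replicate numbers and depth. The 6 pairs of paralogues ran from an r of -0.482 for *MTA1* and *MTA3* to 0.301 for *RBBP4* and *RBBP7*, with *MBD2* and *MBD3* at -0.413, *HDAC1* and *HDAC2* at -0.213, *MTA2* and *MTA3* at -0.179 and *MTA1* and *MTA2* at 0.293.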

How the data were processed

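PRO-seq libraries were made from 24 samples of the T47D dTAG-TRPS1 Clones 28, 35 and 39. The authors removed adapters with cutadapt, deduplicated reads by their molecular identifiers, removed ribosomal DNA reads, aligned the remainder with Bowtie2 to hg38 and used bedtools to count reads per gene (cutadapt 1.8.1, Bowtie2 2.4.4 and SAMtools 1.9 per the submitters' processing notes). The deposited values are raw counts per gene over the whole gene, so that reads paused near the start and reads in the gene body are summed. The annotation used for counting and its strand setting are not given in the sources used here.

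Gene names, spans and GC content were taken from GENCODE release 44 on hg38, which named 60463 of 60605 IDs, and a GENCODE span that runs past the RefSeq start lowers a value per kb. Counts were tested with edgeR 4.0.16 in R 4.3.3 (filterByExpr with a minimum of 10 counts, TMM factors, robust quasi-likelihood fit, Benjamini-Hochberg adjustment over 22326 genes, threshold 0.1). dTAG-13 was fitted with clone as a covariate over all libraries, each clone and the clone differences in 1 model of the 6 groups, and the replicate numbers in that model with number added. DESeq2 1.42.0 was an alternative, as were other scaling and filters, a replicate block, leaving out each library and each clone, and single treatments.

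Libraries of the same clone and number were taken as pairs because the labels state that replicates were harvested at different times with the treatments together. The correlation of their deviations from the group means was between 0.0926 and 0.318 over 12 pairs. Replicates of a group differed by more than sampling noise (chi-square per degree of freedom of 1.66 to 13.8).

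The members and lists were chosen with earlier results of these data known. All 10 subunit genes are named. For 4 subunit genes up to 3 genes of most like pattern are named. Of the other lists apart from the cell type markers, up to 3 called genes per direction and comparison are named by smallest p. Where none was called, it is the gene with the smallest p. A gene that this rule picks in 1 comparison is not reported here. Intervals are 95% and cover the spread between dishes.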

Additional observations from a re-analysis of the deposited data

Results flagged for a closer look

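In each group of 4 libraries, each subunit gene was checked for a library that stood apart from the other 3 (Dixon's test at its 95% critical value). Of 60 sets of 4 libraries, 1 was marked, where chance gives about 3, or 1 in 20. It was *CHD4* in replicate 2 of Clone 28 with dTAG-13, at 50.5 CPM, while the other 3 libraries of that group lay between 52.8 and 53.2 CPM.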

How the results depend on the processing

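No subunit gene was called with dTAG-13 in any clone or in the 3 clones together under any alternative run, while the number of all genes called moved. For the 3 clones together it was 123, and 197 with no low-count filter, 521 with the replicate block, 64 at an adjusted p under 0.05, 1, 41 and 47 without Clones 28, 35 and 39, and 360 and 377 without Clone 35 or 39 with the block (fits of a clone left out with the block were chosen after seeing the data), and from 66 to 151 without 1 library each (lowest without replicate 4 of Clone 28 with DMSO). For Clone 28 it was 12, and 7 with DESeq2's size factors in edgeR, 22 with library totals, 87 with no filter, 23 with at least 10 counts in every library, 263 with the replicate block, 39 with DESeq2, 4 at an adjusted p under 0.05, and from 2 to 29 without 1 library each. For Clones 35 and 39 it was 0 in edgeR, with 646 and 754 genes at an unadjusted p under 0.05, and 4 and 2 with no filter, 21 and 16 with the replicate block and 1 and 1 with DESeq2 (0 to 1 for Clone 39 without 1 library each). For the difference in response between clones it was 0, with 407 genes at an unadjusted p under 0.05, 6 with no filter and 1 with the replicate block.

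Between clones, the 1 subunit gene called between Clone 35 and Clone 28, *HDAC1*, was lost (count 0) with library totals, no filter, both treatments, DESeq2 and an adjusted p under 0.05, from 0 to 1 without 1 library each, and reversed to 0.021 in the dTAG-13 libraries. Over all genes 1173 were called there, 2664 with the replicate block and 3100 over both treatments, and the share of higher calls was 42.7%, or 51.8% with library totals. Between Clone 39 and Clone 28 all genes went from 5959 to 5895 in the dTAG-13 libraries and to 9084 over both treatments. Subunit calls went there from 4 to 2 in the dTAG-13 libraries. Between Clone 39 and Clone 35 they went from 1 to 2 with DESeq2's size factors, 4 with the replicate block, 2 in the dTAG-13 libraries and 5 over both treatments, and from 1 to 2 without 1 library each, with all genes from 5035 to 7805 over both treatments. Between replicates 3 and 4 and 1 and 2, subunit calls went from 7 to 4 without Clone 39. In other runs all genes went from 9108 to 5112 in the dTAG-13 libraries, and the share of higher calls from 50.8% to 65.7% with library totals. In the test of any difference among numbers, subunit calls went from 6 to 3 without Clone 39 and to 3 with DESeq2. All genes went there from 8306 to 5235 without Clone 28, 4332 in the dTAG-13 libraries and 5033 with DESeq2. The counts of all genes without Clone 39 are not given here, so the drops in subunit calls without it are not set against them. In the difference of response between replicate numbers, 0 subunit genes were called, and 0 to 1 without 1 library each (*MTA1* without replicate 3 of Clone 39 with DMSO, adjusted p = 0.0888), and all genes went from 1049 to 643, 287 and 464 without Clones 28, 35 and 39, 264 with DESeq2, 602 at an adjusted p under 0.05 and 681 to 1277 without 1 library each, with the share of higher calls at 41.0%, or 21.6% with library totals. The cause of these moves was not tested.

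An uncalled value that changed sign while uncalled was counted as unchanged where it moved by less than its standard error. The replicate block changed no other call of a subunit gene than those given. Depth limits the precision, since a subunit gene held between 131 and 2007 counts in a library.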
